A study of Mus musculus with 12 samples.

Results

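The 45 genes described here drive or mark the cell division cycle, and they were taken from the deposited gene count table by their symbols. Of these, 10 act at entry into the cycle from G1, 14 in DNA replication, 19 in mitosis, and 2 encode inhibitors of the cyclin-dependent kinases (Cdk). All 45 of them, among the 55228 genes of the table, were found and passed the filter on low counts, with 37 or more counts in every library. Gene expression was compared between the proepicardium (PE) of mouse embryos at E9.5, a cluster of precursor cells beside the inflow of the heart tube, and the embryonic epicardium (EE) at E10.5, the outer cell layer that it forms on the heart. There were 3 mRNA libraries per stage, each from a pool of at least 5 embryos, and the embryos of both stages were untreated and of the strain labelled Wt1Cre-EGFP, called Wt1GFP/+ in the paper, whose reporter is driven by the Wt1 locus. PE was dissected by hand, whereas EE consisted of cells isolated by FACS. A difference between the stages therefore cannot be told apart from one between the ways of collection.

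A cell enters the cycle when D-type cyclins with Cdk4 or Cdk6, and then E-type cyclins with Cdk2, release the E2F transcription factors, which switch on the genes of DNA replication. The replication genes license origins, unwind DNA through the Mcm helicase and supply nucleotides, and they are read mainly at the border of G1 and S phase. The mitosis genes are read later, in G2 and M phase. Many of their promoters hold a CCAAT box and a cell cycle genes homology region (CHR). The DREAM complex represses these genes early in the cycle, and B-Myb complexes activate them later. The embryonic epicardium is known as a proliferating layer that supplies cells to the growing heart.

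The promoters of the members carried these textbook letters in different proportions. RefSeq windows (GRCm38.p6, 250 bases before to 50 after the start) were matched for 37 of the 45 members, and both strands were searched for 3 motifs. The core of the CHR was read as TTTGAA. The CCAAT box was read by the letters of its name. The E2F site was read as the strings TTTCCCGC, TTTGGCGC, TTTCGCGC and TTTGCCGC, which may overlap one another. The CHR core was found in 12 of 16 mitosis members (75.0%), 2 of 12 replication members (16.7%) and 1 of 7 G1 members (14.3%), against 20.2% of all 27025 genes with a window. CCAAT was found in 15 of 16 mitosis members (93.8%), 9 of 12 replication members (75.0%), 3 of 7 G1 members (42.9%) and 41.1% of all genes. An E2F string was found in 6 of 12 replication members (50%), 2 of 7 G1 members (28.6%), 1 of 16 mitosis members (6.25%) and 2.6% of all genes. Both the CHR core and CCAAT were present in 12 of 16 mitosis members and in 7.97% of all genes. A match is a description of the letters and not a measured binding site. The 160 bases before the start are shown 5′ to 3′ on the strand of the gene for 3 mitosis members that were higher in PE, for Cdk1, a mitosis member that was not called, and for 2 subunits of the Mcm helicase. Capitals mark matches to these motifs on either strand, and in Mcm5 and Mcm6 E2F strings on opposite strands overlap. The stretch of Kif11 lies at chr19:37376222-37376381 (plus strand), that of Top2a at chr11:99024190-99024349 (minus strand), that of Bub1 at chr2:127831860-127832019 (minus strand), that of Cdk1 at chr10:69352913-69353072 (minus strand), that of Mcm5 at chr8:75109349-75109508 (plus strand) and that of Mcm6 at chr1:128359706-128359865 (minus strand).
Kif11: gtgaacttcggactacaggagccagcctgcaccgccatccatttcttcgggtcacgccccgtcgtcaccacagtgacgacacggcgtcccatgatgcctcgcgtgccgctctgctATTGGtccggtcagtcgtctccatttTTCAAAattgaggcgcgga
Top2a: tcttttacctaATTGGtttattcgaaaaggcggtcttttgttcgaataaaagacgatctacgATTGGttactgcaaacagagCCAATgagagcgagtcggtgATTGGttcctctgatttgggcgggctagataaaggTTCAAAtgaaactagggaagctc
Bub1: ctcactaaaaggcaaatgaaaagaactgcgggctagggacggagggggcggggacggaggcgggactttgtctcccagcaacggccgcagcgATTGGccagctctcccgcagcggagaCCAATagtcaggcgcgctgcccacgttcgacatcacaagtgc
Cdk1: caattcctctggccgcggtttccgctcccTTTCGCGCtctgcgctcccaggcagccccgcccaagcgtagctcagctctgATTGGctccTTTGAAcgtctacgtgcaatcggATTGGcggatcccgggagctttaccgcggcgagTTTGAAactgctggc
Mcm5: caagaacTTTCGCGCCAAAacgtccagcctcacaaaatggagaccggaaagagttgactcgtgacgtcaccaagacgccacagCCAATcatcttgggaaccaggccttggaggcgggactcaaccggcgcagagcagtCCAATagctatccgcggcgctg
Mcm6: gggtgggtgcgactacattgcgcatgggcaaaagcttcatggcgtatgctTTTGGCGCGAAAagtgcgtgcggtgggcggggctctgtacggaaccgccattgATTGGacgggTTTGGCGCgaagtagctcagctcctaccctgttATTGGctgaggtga
The stretches of Kif11 and Top2a hold 1 CHR core each, with 1 CCAAT box in Kif11 and 4 in Top2a. That of Cdk1 holds 2 CHR cores, 2 CCAAT boxes and also 1 E2F string. Bub1 has CCAAT boxes and no CHR core, and both Mcm stretches hold CCAAT boxes and E2F strings with no CHR core. Among the mitosis members with a window, a CHR core was present in 6 of the 7 that were called higher in PE and in 6 of the 9 that were not called, so the letters were found on both sides of the call.

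Calls were made among the G1 and mitosis members, in opposite directions, and not among the replication members. Of 10 G1 members, 4 were higher in EE, the cyclin genes Ccnd1, Ccnd2 and Ccne2 and the kinase gene Cdk6. Of 19 mitosis members, 9 were higher in PE, by 1.70-fold (Aurkb) to 2.64-fold (Bub1b). Of 14 replication members, 0 were called in either direction. Levels are given as CPM, the counts scaled to a library total adjusted by TMM, and fold changes as EE over PE on the log2 scale. The call required an adjusted p under 0.05 (edgeR's quasi-likelihood test, Benjamini-Hochberg) and a change over 1.5-fold in either direction. By this rule 4.52% of the 23853 genes tested were higher in EE and 4.86% were higher in PE, and among the 8534 genes with a mean of 10 CPM or more, which include most members, 8.18% were higher in EE and 6.71% were higher in PE. The median log2 fold change was 0.61 for the G1 members, -0.31 for the replication members and -0.76 for the mitosis members, beside -0.06 for all genes tested. The lowest EE library lay above the highest PE library for 5 of 10 G1 members, beside 3189 of all 23853 genes tested and 1607 of the 8534 at 10 CPM or more. The lowest PE library lay above the highest EE library for 10 of 19 mitosis members and 1 of 14 replication members. This was the case for 4431 of all 23853 genes tested and 1810 of the 8534 at 10 CPM or more.

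The libraries held 18464362 to 25814015 counts. EE3 had the smallest total and the fewest genes with a count, 18763 against 22186 to 24842 in the other libraries. Markers of cell types differed between the stages as well. Summed over each list of markers, 14 epicardial genes were at 767 to 825 CPM in PE and 6226 to 8370 CPM in EE (13 of 14 higher in EE). In PE, 18 hepatoblast genes were at 3359 to 5997 CPM, against 42.7 to 103 CPM in EE (17 of 18 higher in PE). Ahsg, which was not called, was at 0 counts in all EE libraries and near the floor in PE, at 1.13, 0.195 and 0.075 CPM. For 16 cardiomyocyte genes the sums were 4907 to 7831 CPM in PE and 10003 to 16252 CPM in EE (7 of 16 higher in EE). For 14 endothelial genes they were 582 to 673 CPM in PE and 269 to 449 CPM in EE (9 of 14 higher in PE, 1 higher in EE, and Cldn5 at 0 counts in all EE libraries). For 12 erythroid genes the sums overlapped, at 2993 to 7738 CPM in PE and 609 to 8771 CPM in EE, and none was called in either direction. Immediate early genes, which can respond to handling of cells, summed to 407 to 478 CPM in PE and 1270 to 2379 CPM in EE (15 of 23 tested higher in EE). The part of these cell types and of handling in the results on the cycle genes was not tested. In bulk libraries such as these, fewer cells in a phase of the cycle and less RNA of a gene per cell cannot be told apart.

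**Figure D1:**
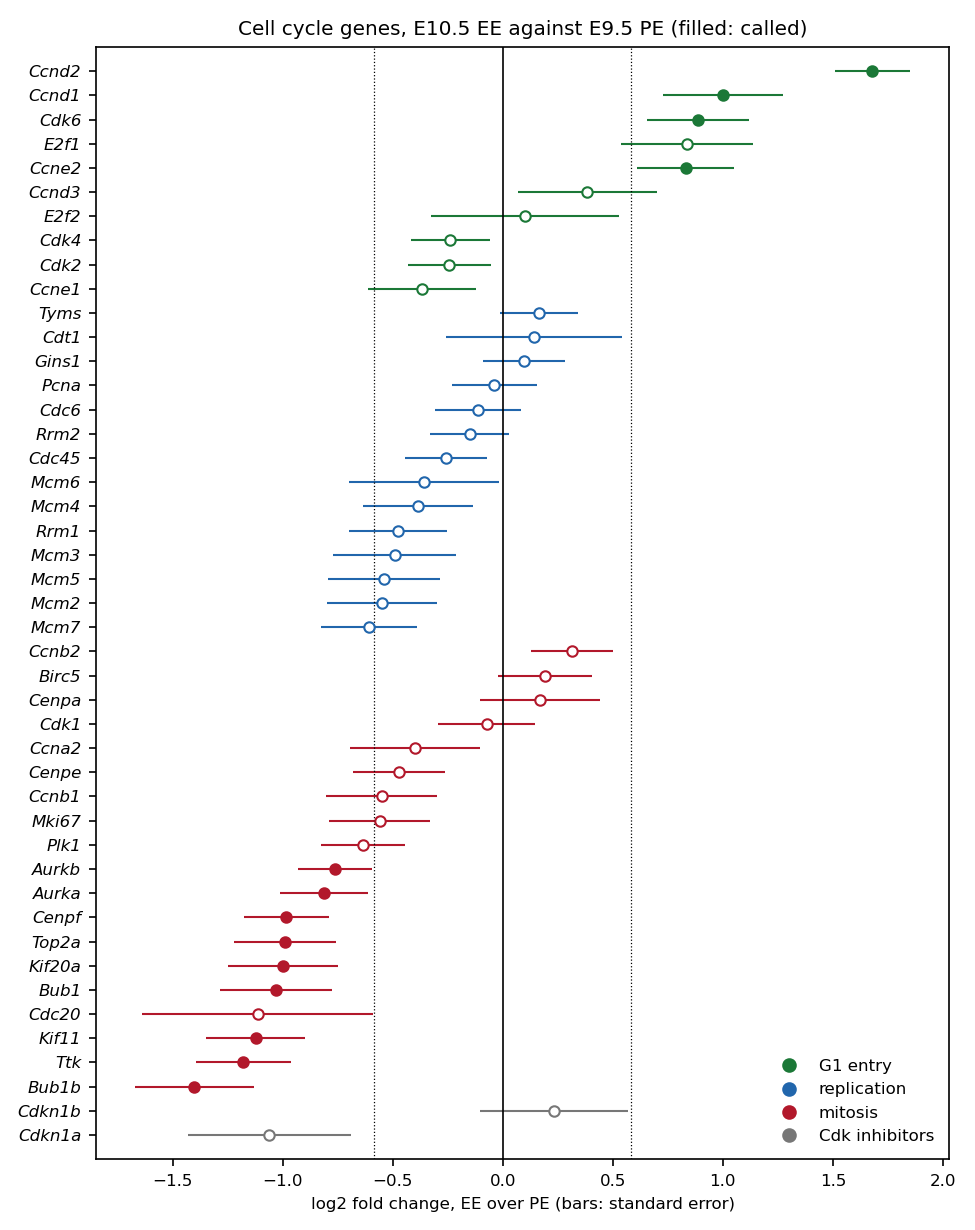
Log2 fold change of each of the 45 members, EE over PE (x axis), ordered within each phase, with bars for the standard error over 3 against 3 libraries, dotted lines at the limit of 1.5-fold and filled points for called genes. The filled G1 points lie to the right of the limit, 9 of 19 mitosis points are filled and lie to the left, and no replication point is filled.

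Among the D-type cyclins, which receive growth signals and start the cycle, Ccnd2 changed most. Its level was 493, 489.8 and 467 CPM in PE1, PE2 and PE3 and 1332, 1621 and 1693 CPM in EE1, EE2 and EE3. The 3 PE libraries lay within a narrow range and all EE libraries were far above them. The level was 3.20-fold higher in EE (log2 fold change 1.68, standard error 0.172, adjusted p = 0.00046 from edgeR), and the call held in all 14 alternative analyses that could end it. Ccnd1 was at 111, 61.8 and 73.6 CPM in PE and 119, 174 and 199.7 CPM in EE. Its stages did not overlap, but PE1 came close to EE1. Ccnd1 was called just inside the limit (log2 fold change 1.00, standard error 0.272, adjusted p = 0.0487 from edgeR). Of its exon bases, 23.4% overlap LTO1, annotated on the other strand, and the libraries do not mark the strand. Ccnd3 was at 168, 71.2 and 74.1 CPM in PE and 138, 143 and 129 CPM in EE. PE1 stood apart from the other PE libraries for this gene, and Ccnd3 was not called (log2 fold change 0.38, adjusted p = 0.514) but passed the test without PE1 (0.91, adjusted p = 0.0205 from edgeR).

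To compare the 3 D-type cyclins with each other, CPM were divided by transcript length. Per kilobase, Ccnd2 made up 41.6%, 60.6% and 57.4% of the summed D-type cyclin level in the PE libraries and 68.4%, 69.2% and 70.0% in the EE libraries. All EE libraries had a higher share of Ccnd2 than any PE library. The mean share of Ccnd3 was 32.1% in PE and 18.5% in EE, and that of Ccnd1 was 14.7% in PE and 12.3% in EE, so that Ccnd1 had a higher level in EE and a lower mean share. Ccnd2 spans bases 127125162 to 127152193 of chromosome 6 (GRCm38), and genes on the other strand cover 7.87% of its exon bases.

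The kinase partners of the D-type cyclins did not move together. Cdk6 was at 14.8, 17.0 and 18.1 CPM in PE and 25.6, 30.9 and 35.9 CPM in EE, with no overlap, and it was called (log2 fold change 0.89, standard error 0.233, adjusted p = 0.0436 from edgeR). Cdk4 had the highest CPM of all members, with 2392, 2671 and 2357 CPM in PE and 2477, 1803 and 2009 CPM in EE. EE1 lay within the PE range, and Cdk4 was not called (log2 fold change -0.24, 95% interval -0.64 to 0.16, adjusted p = 0.464). Of the exon bases of Cdk4, 19.7% overlap Tspan31 on the other strand. Of the E-type cyclins, which act with Cdk2 at the start of S phase, Ccne2 was at 122, 167 and 186 CPM in PE and 227, 297 and 321 CPM in EE. All EE libraries were above all PE libraries (log2 fold change 0.83, standard error 0.219, adjusted p = 0.0438 from edgeR), and 17.4% of its exon bases overlap Ints8 on the other strand. Ccne1 was at 27.1, 28.5 and 20.1 CPM in PE and 23.1, 18.4 and 17.2 CPM in EE, with overlapping stages, and was not called (log2 fold change -0.37, adjusted p = 0.407). Cdk2 was not called either (log2 fold change -0.24, adjusted p = 0.486).

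The E2F genes had low levels. E2f1, an activator of replication genes, was at 7.69, 7.93 and 8.77 CPM in PE and 11.9, 11.9 and 19.9 CPM in EE. All EE libraries were above all PE libraries, with EE3 the highest, and E2f1 did not pass the test in edgeR (log2 fold change 0.84, adjusted p = 0.116) whereas it did with DESeq2 (adjusted p = 0.0397). E2f2 had means of 2.20 CPM (PE) and 2.36 CPM (EE), with a log2 fold change of 0.10 and an adjusted p of 0.921. The calls of the G1 members other than Ccnd2 lay near the threshold. Without PE2, PE3, EE2 or EE3 only Ccnd2 of the 10 was higher in EE. Without PE1, 3 were higher in EE, with Ccnd3 in and Cdk6 and Ccne2 out, and without EE1 the same 4 remained. When TMM was replaced by library size alone, Ccnd2 was the only G1 member called. The call of Ccnd1 also ended with RLE scaling factors and with limma, and that of Cdk6 with a block for the replicate number. Ccnd1 and Cdk6 were each called in 7 of the 14 alternatives and Ccne2 in 8. Over the 14 alternatives the adjusted p ranged from 0.00947 to 0.177 for Ccnd1, from 0.00278 to 0.154 for Cdk6 and from 0.00771 to 0.121 for Ccne2, and the sign of the fold change held for all 4 genes in each of them.

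The genes of DNA replication did not pass the test. Their mean levels ran from 27.5 CPM (Cdt1) to 937 CPM (Rrm1) in PE and from 30.3 CPM (Cdt1) to 684 CPM (Rrm2) in EE. Of the 14 members, 11 had a fold change below 0 and 3 above 0, from -0.61 (Mcm7) to 0.17 (Tyms) on the log2 scale. Only Mcm7, 1 of the 14, had an unadjusted p under 0.05 in edgeR's test, and with DESeq2 and with limma 0 were called. The Mcm2 to Mcm7 genes encode the 6 subunits of the helicase that is loaded at origins and opens DNA ahead of the fork. Mcm7 was at 494, 680.4 and 578 CPM in PE and 471, 383 and 296 CPM in EE. It was the only replication member whose stages did not overlap, and it was not called (log2 fold change -0.61, standard error 0.216, adjusted p = 0.115). Of the 50-base words in the Mcm7 exons, 26.0% occur also in the processed pseudogene Gm5487, so reads may be split between them. Mcm2 was at 457, 683 and 557 CPM in PE and 469, 429 and 261 CPM in EE, with EE1 above PE1 (log2 fold change -0.55, adjusted p = 0.207). Mcm3, Mcm4, Mcm5 and Mcm6 had log2 fold changes of -0.49, -0.38, -0.54 and -0.36, with adjusted p-values from 0.222 (Mcm5) to 0.579 (Mcm6). EE3 was the lowest library for Mcm2, Mcm3, Mcm4, Mcm5 and Mcm7. Mcm6 did not follow the other subunits over the libraries, with its highest level in PE1 (344 CPM) and its lowest in PE2 (127 CPM).

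Rrm1 aside, the other replication members had smaller fold changes than the Mcm genes. Rrm1 and Rrm2 encode the large and small subunits of ribonucleotide reductase, which makes deoxynucleotides. Rrm1 was at 704, 1087 and 1020.0 CPM in PE and 779, 711 and 531 CPM in EE. PE1 was lower than the highest EE library, and Rrm1 was not called (log2 fold change -0.48, adjusted p = 0.222). Rrm2 was at 804, 682 and 792 CPM in PE and 569, 729 and 755 CPM in EE, also with overlap (log2 fold change -0.15, 95% interval -0.55 to 0.25, adjusted p = 0.671). Tyms, which makes thymidylate, and Pcna, the sliding clamp of the polymerases, had log2 fold changes of 0.17 and -0.04. The intervals of these genes still allow a change of the size of the fold limit for some of them: the 95% interval ran from -0.47 to 0.39 for Pcna and from -0.23 to 0.56 for Tyms, both inside it, but from -1.11 to 0.01 for Mcm2. Of the 50-base words of Pcna, 31.8% occur also in the processed pseudogene Pcna-ps2. The loading factors Cdc6 and Cdt1 had log2 fold changes of -0.11 and 0.14, and Cdc45 and Gins1, which join the helicase when it is switched on, -0.26 and 0.10. Cdt1 was at 48.5 CPM in PE1 and at 17.3 and 16.6 CPM in PE2 and PE3, so the wide spread in PE came from 1 library.

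**Figure D2:**
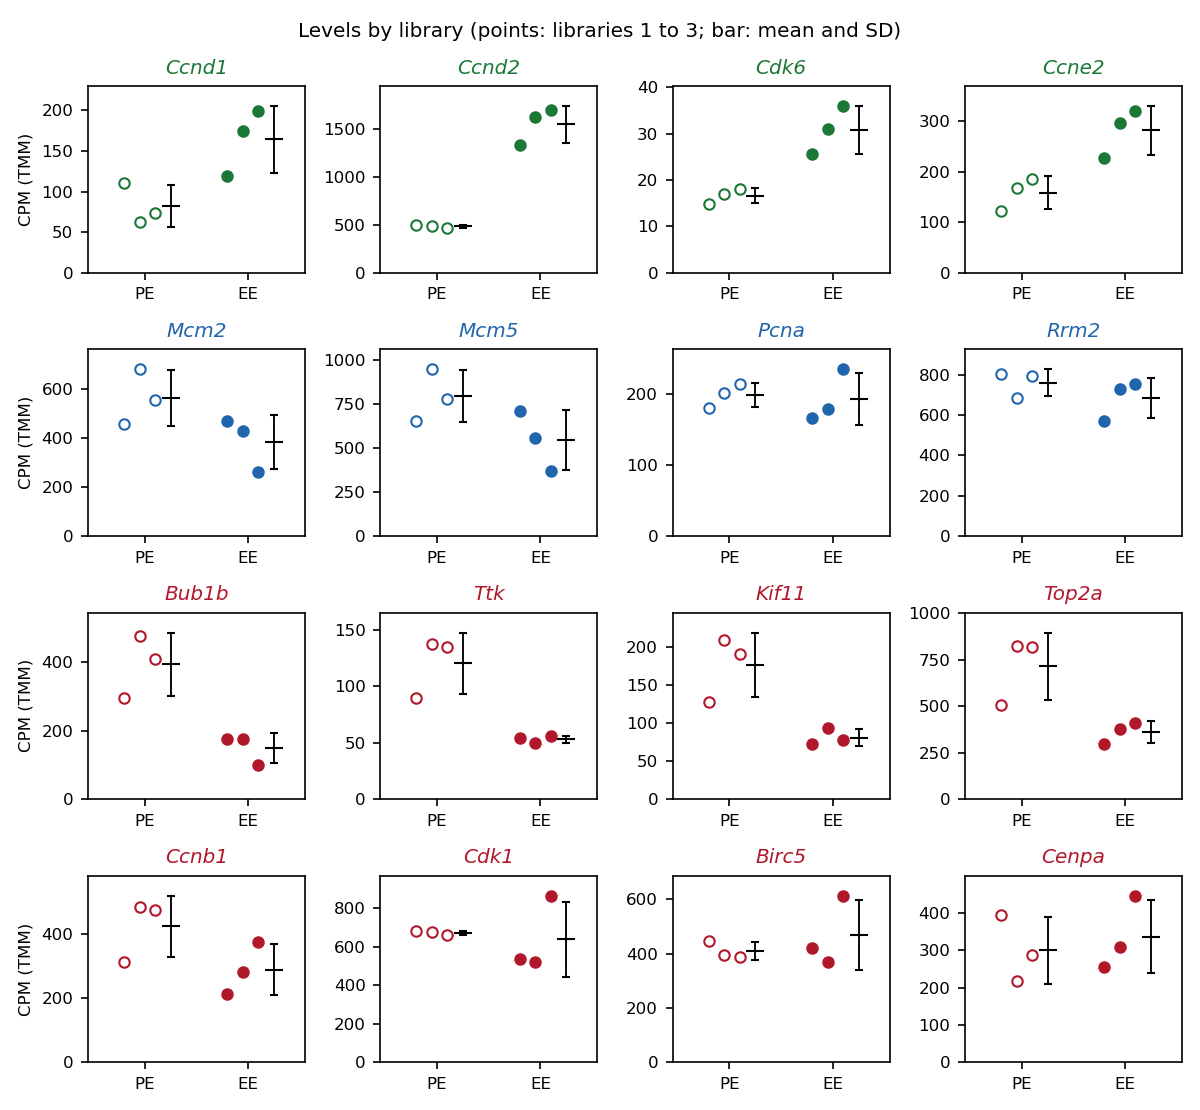
Level in CPM (y axis, from 0) of 16 members in the 3 PE libraries (open points) and 3 EE libraries (filled points), with the mean and SD beside them, for G1, replication and mitosis genes in rows, chosen after their values were seen. Ccnd2 rises from at most 493 to at least 1332 CPM, Bub1b, Ttk, Kif11 and Top2a fall without overlap, and Pcna, Rrm2, Cdk1, Birc5 and Cenpa overlap between the stages.

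Of the mitosis genes that were higher in PE, Bub1b, Ttk and Bub1 act in the spindle checkpoint, which holds chromosome separation until each chromosome is attached. Bub1b, which encodes the checkpoint protein BubR1, was at 296, 479 and 411 CPM in PE and 175, 175 and 98.9 CPM in EE. All PE libraries were above all EE libraries, with EE3 the lowest. Its level was 2.64-fold higher in PE (log2 fold change -1.40, standard error 0.270, adjusted p = 0.0115 from edgeR). Ttk, the Mps1 kinase that starts checkpoint signalling, was at 89.3, 137 and 135 CPM in PE and 54.3, 49.8 and 55.8 CPM in EE, with closely spaced EE libraries (log2 fold change -1.18, standard error 0.216, adjusted p = 0.00923). Bub1, the kinase that recruits other checkpoint proteins to kinetochores, was at 189.9, 343 and 327 CPM in PE and 129.5, 169.5 and 122 CPM in EE. Its stages did not overlap, though PE1 came close to EE2 (log2 fold change -1.03, standard error 0.254, adjusted p = 0.0337).

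Motor proteins of the spindle and midzone followed the same direction. Kif11, the Eg5 motor that pushes the spindle poles apart, was at 128, 209 and 191 CPM in PE and 72.4, 92.9 and 77.7 CPM in EE. Its level was 2.18-fold higher in PE, with no overlap (log2 fold change -1.12, standard error 0.226, adjusted p = 0.0139 from edgeR). Kif20a, a motor needed for cytokinesis, was at 267, 419 and 353 CPM in PE and 213, 183 and 123 CPM in EE. PE was again above EE in all libraries (log2 fold change -1.0, standard error 0.250, adjusted p = 0.0357), with 29.3% of the exon bases overlapping Cdc23 on the other strand. Cenpf, a large kinetochore protein of G2 and M phase, was at 178, 246 and 249 CPM in PE and 114, 110.1 and 116 CPM in EE. The EE libraries were close to each other and all below PE (log2 fold change -0.98, standard error 0.191, adjusted p = 0.0120).

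Top2a, the topoisomerase that untangles sister chromatids, was at 508, 823 and 817 CPM in PE and 296, 376 and 409 CPM in EE. The levels of PE1 and EE3 were the nearest between the stages (log2 fold change -0.99, standard error 0.231, adjusted p = 0.0267 from edgeR). The Aurora kinases had smaller fold changes. Aurka, which acts at the spindle poles, was at 378, 463 and 409.5 CPM in PE and 225, 195 and 292 CPM in EE, again without overlap (log2 fold change -0.81, standard error 0.200, adjusted p = 0.0336). Aurkb, the kinase of the chromosomal passenger complex, was at 347, 404 and 363 CPM in PE and 229.9, 199.0 and 227 CPM in EE. Both stages of Aurkb were tight (log2 fold change -0.76, standard error 0.168, adjusted p = 0.0216). Plk1, which drives entry into and passage through mitosis, was at 359, 516 and 424 CPM in PE and 306, 258 and 273 CPM in EE. Its stages did not overlap either, but it missed the threshold (log2 fold change -0.64, standard error 0.190, adjusted p = 0.0688), and it passed with DESeq2 (adjusted p = 0.0271), with library size alone (adjusted p = 0.0265) and without PE1 (adjusted p = 0.0436).

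The count of mitosis members depended on single libraries. Without PE2, and likewise without PE3, 2 of 19 were higher in PE, Bub1b and Ttk in both cases, and without EE2, EE1 or EE3 there were 5, 6 and 7. Without PE1 all 9 remained and Plk1 was added. Bub1b and Ttk were called in all 14 alternatives, and none of the 9 changed sign in any of them. The median log2 fold change of the mitosis members stayed between -0.79 and -0.70 when single libraries were left out.

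The core engine of mitosis was not among the genes called. Cdk1, the kinase that drives entry into M phase, was at 681, 675 and 661 CPM in PE and 534, 518 and 864 CPM in EE. The PE libraries were close to each other, EE1 and EE2 were lower and EE3 was higher, and the log2 fold change was -0.07 (95% interval -0.56 to 0.42, adjusted p = 0.881 from edgeR). Its cyclin partners Ccnb1, Ccnb2 and Ccna2 had log2 fold changes of -0.55, 0.31 and -0.40 (adjusted p from 0.209 for Ccnb1 to 0.461 for Ccna2). Ccnb1 shares 42.1% of its 50-base words with other genes, Ccnb1-ps first among them. Mki67, the proliferation marker Ki-67, was at 96.7, 159.7 and 147 CPM in PE and 81.2, 85.5 and 107 CPM in EE, with EE3 above PE1, and was not called (log2 fold change -0.56, standard error 0.230, adjusted p = 0.166). The fold change of Cenpe, a kinetochore motor, was -0.47 on the log2 scale (adjusted p = 0.199). Birc5 (survivin, a subunit of the passenger complex) and Cenpa, the histone of the centromere, had log2 fold changes of 0.19 and 0.17. Cdc20, which activates the ligase that starts anaphase, was at 319, 74.9 and 97.6 CPM in PE and 40.2, 92.8 and 94.0 CPM in EE. PE1 alone was high, and the fold change of -1.11 on the log2 scale (standard error 0.526, adjusted p = 0.226) was -0.19 without that library.

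Replication and mitosis genes were set against each other within each library. The mean log2(CPM + 1) of the 19 mitosis members minus that of the 14 replication members was -0.25, -0.14 and -0.13 in PE1, PE2 and PE3 and -0.81, -0.57 and -0.31 in EE1, EE2 and EE3. All EE libraries lay below all PE libraries, with EE3 the nearest to PE. The mitosis mean itself was 7.92 to 8.12 in PE and 7.26 to 7.53 in EE, and the replication mean 8.17 to 8.25 in PE and 7.84 to 8.08 in EE. These values rest on the members alone and carry no test. In EE3 the replication mean was the lowest of all libraries while its mitosis mean was the highest of EE.

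**Figure D3:**
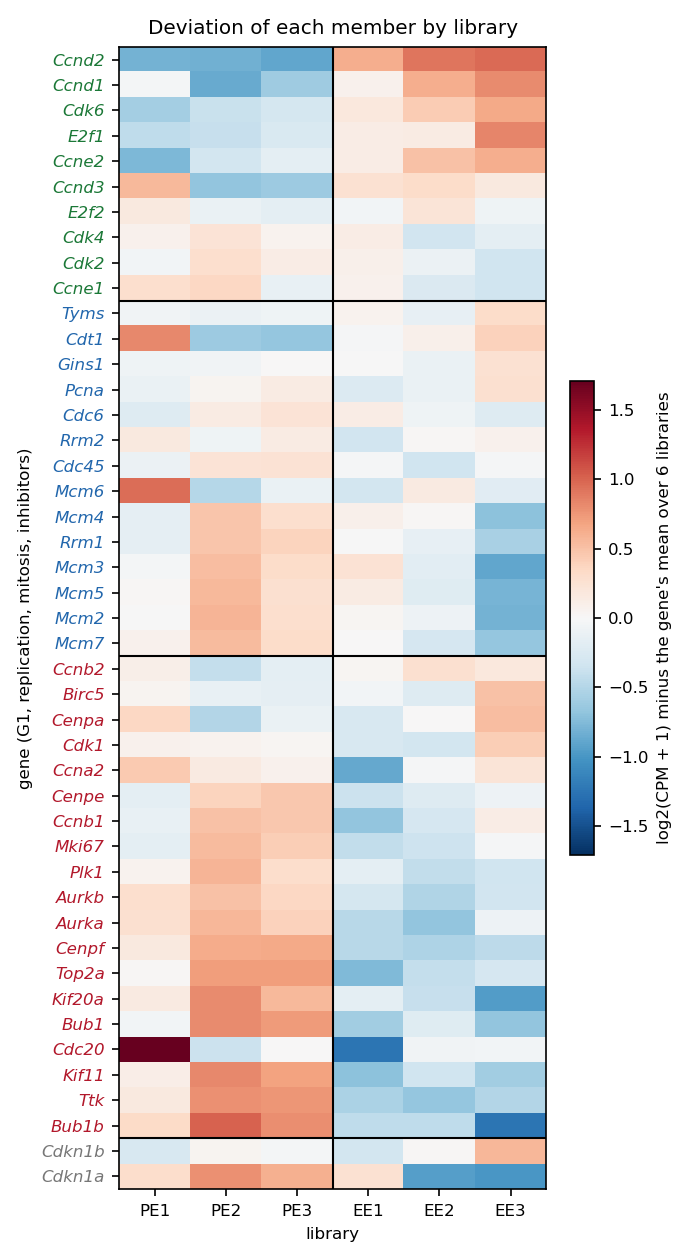
Deviation of each member's log2(CPM + 1) from its mean over the 6 libraries (colour, red above and blue below the mean), with members in rows by phase and libraries in columns. The lower mitosis rows are red in PE2 and PE3 and blue in EE, Cdc20 is red in PE1 alone, and Mcm2, Mcm3, Mcm4, Mcm5, Mcm7 and Rrm1 are blue mainly in EE3.

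Fold changes in these libraries varied with transcript length, and this was set beside the members. Over the genes with a mean of 10 CPM or more, split into 5 bins of equal size by length, the median log2 fold change was 0.25, 0.03, -0.15, -0.26 and -0.20 from the shortest to the longest. The trend differed within each stage. From the shortest to the longest bin, the median deviation from the gene's mean log2 level went from -0.24 to 0.25 in PE2 and from -0.19 to 0.17 in PE3. In PE1 it went from 0.02 to -0.15. In EE1, EE2 and EE3 it went from 0.11 to -0.16, from -0.05 to 0.02 and from 0.35 to -0.12. Of the 9 mitosis members with a transcript longer than the class median of 2965 bases, 6 were higher in PE (median log2 fold change -0.99), and of the 10 others, 3 were higher in PE (median -0.59). Among the replication members the median was -0.49 for the 7 longer and -0.11 for the 7 others. With offsets that remove a smooth trend on length and GC content from each library, an alternative chosen after seeing the data, the same 9 mitosis and the same 4 G1 members were called, and the medians were -0.76 for mitosis and -0.25 for replication members. In that fit Cdk1 turned to 0.23, Gins1 to -0.27, Birc5 to -0.18 and Cenpa to -0.05, none of them called.

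**Figure D4:**
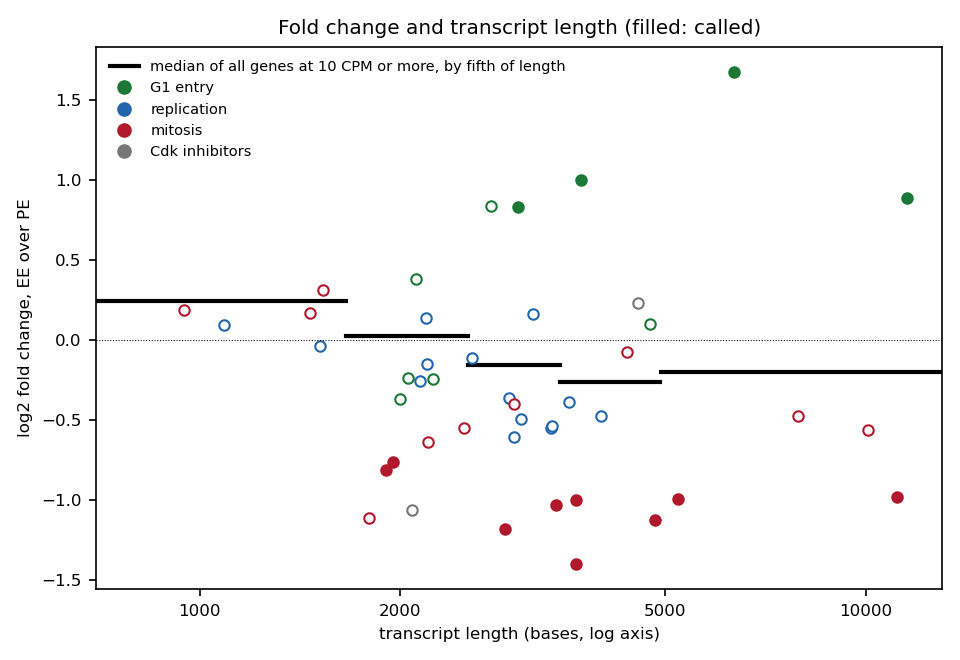
Log2 fold change of the members, EE over PE (y axis), against transcript length in bases (log axis), with black lines for the median of all genes at 10 CPM or more in each of 5 length bins and filled points for called genes. The lines step from 0.25 down to -0.26, and the called mitosis genes lie below the line at lengths from about that of Aurka to that of Cenpf.

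The 2 Cdk inhibitors among the members were low and neither was called. Cdkn1a, which encodes p21, was at 26.6, 37.6 and 33.1 CPM in PE and 25.8, 10.6 and 10.2 CPM in EE. The stages did not overlap, with EE1 just below PE1, and Cdkn1a missed the threshold (log2 fold change -1.06, standard error 0.370, adjusted p = 0.110 from edgeR). It passed in 4 of the 14 alternatives, with adjusted p-values from 0.0112 without EE1 to 0.303 without PE2. Cdkn1b, which encodes p27, was at 6.28, 8.08 and 7.53 CPM in PE and 6.03, 7.85 and 11.9 CPM in EE, with overlap (log2 fold change 0.23, adjusted p = 0.730).

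Further genes of the pathway, from wider lists of each step, were counted in the same fit. For 36 of 72 other mitosis genes all PE libraries were above all EE libraries, beside 4431 of all 23853 genes tested and 1810 of the 8534 at 10 CPM or more. The median log2 fold change of the 72 was -0.44, 58 were not called and 14 were higher in PE. Examples are Nek2, a centrosome kinase (-1.62, adjusted p = 0.0480), Ncapd2, a subunit of condensin (-1.57, adjusted p = 0.00686), and Espl1, the separase that cuts cohesin (-1.30, adjusted p = 0.0270). Ncapd2 was at 169.7, 297 and 206 CPM in PE and 92.9, 79.0 and 54.5 CPM in EE. Of 50 other replication genes, 2 were higher in PE, Fen1, the nuclease of lagging strands (-1.06, adjusted p = 0.0366), and Recql4, a helicase (-1.10, adjusted p = 0.0432), and the median was -0.06. The share called in PE was thus 19.4% of the other mitosis and 4.0% of the other replication genes, beside 4.86% of all genes. For 14 of the 50 other replication genes all PE libraries were above all EE libraries. All EE libraries were above all PE libraries for 7 of these 50 and for 0 of the 72 other mitosis genes, beside 3189 of all 23853 genes tested.

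Regulators around the cycle were counted too, beside 4.52% of all genes tested higher in EE and 4.86% higher in PE. A list of 27 other regulators held genes of G1 and S phase. It also held regulators of G2 and M phase, such as Foxm1, Cdc25b and Wee1. Of the 27, 20 had a fold change below 0 and 7 above 0. In this mixed list 1 gene was higher in PE (3.7%, near the share of all genes) and 0 were higher in EE. This gene was Myc, a growth-promoting transcription factor, which was at 109, 96.2 and 98.8 CPM in PE and 51.9, 55.5 and 47.3 CPM in EE. The stages were well apart (log2 fold change -0.98, standard error 0.181, adjusted p = 0.00968 from edgeR). Of 5 other genes named as Cdk inhibitors and tested, 2 were higher in EE (40%), Cdkn1c and Cdkn3. Cdkn2d was not called (log2 fold change 0.16). Cdkn2b and Cdkn2c were near the floor, with means of 0.22 and 0.21 CPM in PE and 0.30 and 0.53 CPM in EE. Cdkn1c, which encodes p57 and restrains the cycle in differentiating embryonic tissues, was at 102, 77.8 and 82.5 CPM in PE and 214, 242 and 390.4 CPM in EE, with EE3 the highest (log2 fold change 1.69, standard error 0.256, adjusted p = 0.00357). Cdkn3, a phosphatase that acts on Cdk, was at 41.1, 33.2 and 33.3 CPM in PE and 74.5, 60.8 and 109.5 CPM in EE, also without overlap (log2 fold change 1.19, adjusted p = 0.0180 from edgeR). Of 14 checkpoint and repair genes tested, 2 (14.3%) were higher in PE, both of the Fanconi pathway, Fanci (-1.63, adjusted p = 0.0345) and Fancd2 (-1.18, adjusted p = 0.0344). Of 22 p53 target genes, 3 (13.6%) were higher in EE, Ddit4l (3.01, adjusted p = 0.00135), Btg2 (2.68, adjusted p = 0.00728) and Eda2r (1.18, adjusted p = 0.0465). Btg2, which slows the cycle and is an immediate early gene in many cells, was at 259.98 CPM in EE1 and at 76.8 and 77.3 CPM in EE2 and EE3, against 17.6 to 25.5 CPM in PE.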

How the data were processed

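Amplified cDNA (SMART-Seq v4, not stranded) was made into libraries with Nextera XT. The authors deposited 1 table of whole-number counts per gene, not normalized. The paper names RSEM for this step, while STAR, featureCounts and Trim Galore 0.4.3.1 are the tools in the submitters' notes. The EE columns carry an abbreviation of epicardium-derived cells and were matched to the EE samples by number. The small RNA table was not used here.

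From the deposited counts, genes with a count of 1 or more in 3 or more of 6 libraries were compared with edgeR 4.0.16 (TMM factors, quasi-likelihood test, Benjamini-Hochberg adjustment over all genes tested) in R 4.3.3. The standard error is the fold change over the square root of F. P-values measure the spread between pools of embryos. The members and lists were chosen with earlier results of these data known. Values in all libraries are given for called members and, in each phase, for the 2 with the highest CPM and the 2 uncalled ones with the smallest adjusted p. From the other lists up to 4 called genes with the largest fold changes and at least 5 CPM are named. Cdc20, Ccnd3, Mcm6, Cdt1 and the figure genes were added after their values were seen. Lengths, GC content, overlaps and shared 50-base words came from GENCODE annotation of GRCm38, for 98.03% of genes tested and all members.

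Alternatives were the tests DESeq2 1.42.0 and limma 3.58.1 (on log2(normalized count + 1)), scaling by RLE factors or library size alone, filtering by filterByExpr or not at all, dropping the fold limit, a block for the replicate number, each library left out, and, chosen after seeing the data, length and GC offsets (mgcv 1.9.3). The tests were also run on counts simulated from the means and spread of these libraries. Those counts hold no difference in collection, cell types or transcript length, so they do not bear on these limits. Figures were made with Python 3.11.15 and matplotlib 3.10.9.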

Additional observations from a re-analysis of the deposited data

How the results depend on the processing

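With DESeq2, 1734 genes were higher in EE and 1924 higher in PE, against 1078 and 1159 with edgeR. Leaving out 1 library at a time gave 563 to 1160 genes higher in EE, 470 to 1100 higher in PE, 1 to 4 G1 members higher in EE and 2 to 10 mitosis members higher in PE. With library size alone, 1 G1 member was higher in EE, the median of the replication members was -0.43, and the median of all genes was -0.18. Same-numbered libraries correlated at -0.21, 0.12 and -0.10 after the stage means were removed, and differently numbered ones at -0.39 to 0.33. With 3 libraries per stage this cannot decide whether the shared numbers mark pairs. A fit with that number as a block gave 1140 genes higher in EE and 1382 higher in PE, with 3 G1 and 9 mitosis members called. Signs turned only for genes that were not called: with library size alone E2f2 (-0.018) and Gins1 (-0.023), with length and GC offsets Gins1 (-0.27), Cdk1 (0.23), Birc5 (-0.18) and Cenpa (-0.051), and with single libraries left out E2f2 (-0.069 to 0.26), Cdt1 (-0.12 to 0.84), Mcm6 (-0.62 to 0.18), Gins1 (-0.016 to 0.15), Pcna (-0.20 to 0.063), Cdk1 (-0.35 to 0.043), Birc5 (-0.050 to 0.30), Cenpa (-0.086 to 0.42) and Cdkn1b (-0.072 to 0.44). No replication member was called under any alternative. Leaving out a library leaves 2 against 3, and the cause of the other shifts was not tested. With 3 pools per stage, the standard errors of the members ran from 0.168 to 0.526 on the log2 scale.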
